A study of Mus musculus with 8 samples.

Results

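Uncoupling proteins are carriers of the mitochondrial inner membrane, and 6 genes of this branch were followed in islets that overexpress one of them. The genes were *Ucp1*, *Ucp2* and *Ucp3* and their closest relatives *Slc25a14*, *Slc25a27* and *Slc25a30*. Every probe that the deposited annotation gives to one of these symbols was taken, which made 6 of the 26916 gene symbols and 13 of the 56605 probes on the array: 1 for *Ucp1*, 2 for *Ucp2*, 1 for *Ucp3*, 2 for *Slc25a14*, 3 for *Slc25a27* and 4 for *Slc25a30*. Each probe was read from 1 spot per array.

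Islets came from male βUCP2Tg mice (n = 4 arrays) and from male wild-type (WT) mice (n = 4 arrays). Per the study's methods, the transgene joined a rat *Ins2* promoter, which is active in β-cells, to a rabbit β-globin intron, a mouse *Ucp2* cDNA and a polyadenylation signal. The line had been crossed to C57BL6/J more than 10 times, and WT mice were littermates. By the methods, mice of this line were studied at 8 to 20 weeks of age, and islets were taken at 8 to 12 weeks. Islets of both genotypes were kept for 8 h in RPMI medium with 200 mg/dL glucose before RNA was taken. The sources do not say whether an array held RNA from 1 mouse or from several, and p-values therefore describe the spread between arrays. The comparison asks which transcripts differ in islets when β-cells carry more UCP2, and for this family it also asks how the separate probes of each gene read the transgene. Islets also keep the endogenous *Ucp2* gene and hold cells other than β-cells, and in whole islets more cells of a type and more RNA per cell cannot be told apart.

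UCP1 lets protons return to the mitochondrial matrix without making ATP and gives brown fat its heat. UCP2 is widespread, with known expression in macrophages and β-cells, and has been described both as a brake on the mitochondrial membrane potential and as an exporter of C4 metabolites. UCP3 is best known from skeletal muscle, SLC25A14 (also called UCP5 or BMCP1) and SLC25A27 (also called UCP4) from brain, and SLC25A30 (KMCP1) from kidney.

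The 60-base probe sequences show which stretch of a transcript a signal comes from. They are given 5′ to 3′, as the deposited annotation gives them, for the probes on which the results turn.

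Both *Ucp2* probes reach a codon that can be recognised in the letters. Probe A_51_P297105, read in codons from its first base, meets its first stop codon at bases 49 to 51 (capitals) and ends 9 bases after it, at the 3′ end of the coding sequence. Probe A_52_P90265 has an ATG at bases 52 to 54 (capitals), with 51 bases before it that belong to the 5′ untranslated region, and only its last 30 bases are shown.
Ucp2 A_51_P297105: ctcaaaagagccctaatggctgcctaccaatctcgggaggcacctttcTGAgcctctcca
Ucp2 A_52_P90265, bases 31 to 60: aggtagcaggaaatcagaatcATGgttggt

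They are called the stop-codon probe and the start-codon probe of *Ucp2* here. The *Ucp1* probe is shown because it lay best against the stop-codon probe of *Ucp2* among all 78 pairs of the 13 probes compared without gaps over at least 20 bases. Bases 33 to 60 of the *Ucp1* probe shared 16 of 28 bases (57.1%) with bases 1 to 28 of the *Ucp2* probe, and these identical bases are in capitals.
Ucp1 A_51_P426353: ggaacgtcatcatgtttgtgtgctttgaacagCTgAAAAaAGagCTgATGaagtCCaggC

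The *Ucp3* probe and one of the 3 *Slc25a27* probes are shown because they lie within coding sequence and could be laid against each other over 54 bases, of which 28 (51.9%) were identical. Capitals mark the identical bases.
Ucp3 A_66_P108247: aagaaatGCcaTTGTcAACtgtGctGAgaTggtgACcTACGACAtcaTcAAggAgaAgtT
Slc25a27 A_52_P100069: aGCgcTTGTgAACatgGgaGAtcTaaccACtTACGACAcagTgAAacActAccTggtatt

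The longest run of bases that any of the 78 pairs had in common was 8, and the stop-codon probe of *Ucp2* and the *Ucp3* probe had no common run over 5 bases. No other probe in the deposited annotation shared a run of 20 bases with any of the 13, on either strand. The *Ucp3* probe was not compared with the rest of the *Ucp2* transcript, and how far *Ucp2* RNA binds to it was not tested.

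Signals are given as the background-subtracted intensity of the scanner software and, for comparisons, as log2 intensity relative to the 75th percentile of the same array. A fold change compares the same probe between genotypes, and levels of different probes are not compared. A probe was called when the adjusted p of limma (Benjamini-Hochberg over all 35363 probes tested) was under 0.05 and the fold change over 1.5. Of the 13 probes, 8 were well above background on all 8 arrays and 10 were tested, meaning that they were well above background on at least 4 arrays.

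Of the 10 tested probes, 2 were called higher in βUCP2Tg islets, where 0.206% of all tested probes were called higher. None was called lower, where 0.204% of all tested probes were; at an unadjusted p under 0.05, which 25.2% of all tested probes reached in either direction, 4 of the 10 were higher and 0 lower by limma, while the methods' t-test gave 5 higher and 0 lower and likewise called 2 higher and 0 lower. In 3 of the 10 the 4 arrays of one genotype did not overlap with the 4 of the other, where 12.4% of all tested probes did not overlap. The median log2 fold change over all tested probes was −0.02, with 5% of probes below −0.75 and 5% above 0.59.

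**Figure D1:**
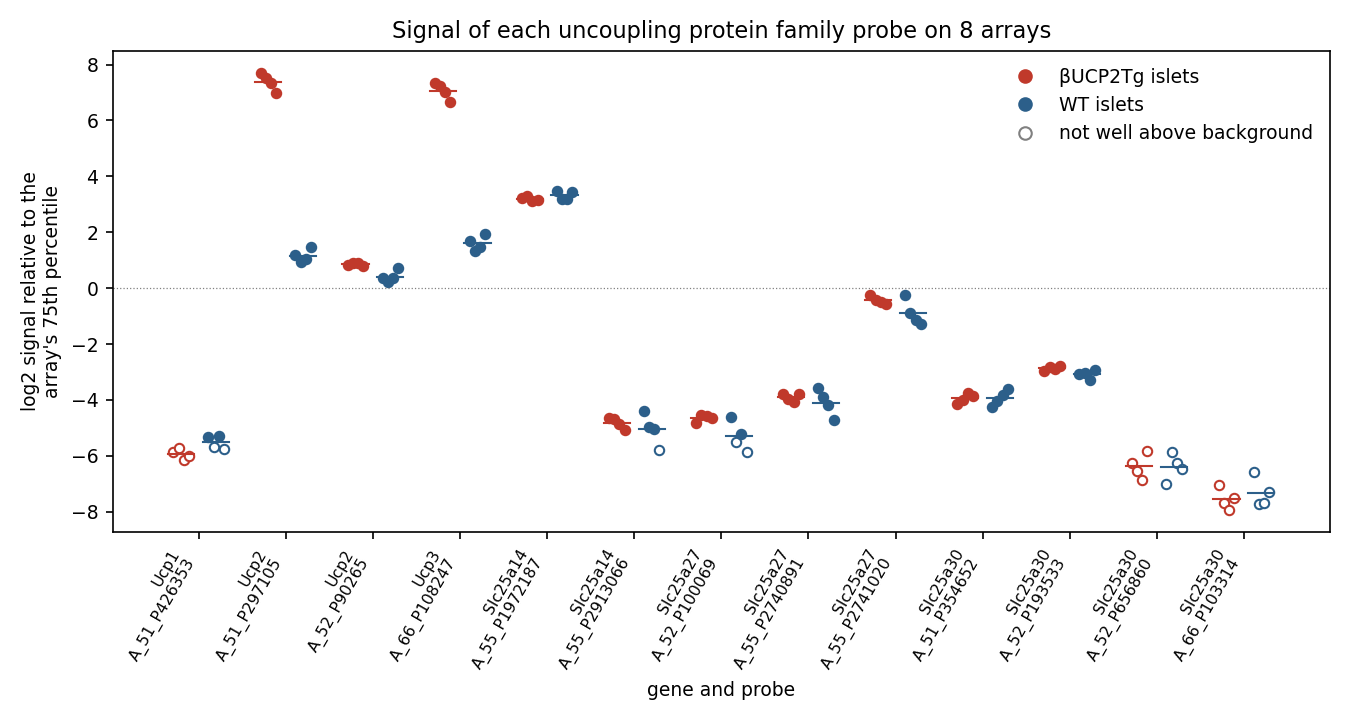
Signal of each of the 13 probes on each array, as log2 intensity relative to the array's 75th percentile (y axis), by gene and probe (x axis). Points are arrays, lines are group means (n = 4), and open points are not well above background. The stop-codon probe of *Ucp2* (A_51_P297105) and the *Ucp3* probe stand 6.24 and 5.45 log2 units higher in βUCP2Tg islets, and the other tested probes differ by −0.11 to 0.67.

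Of the 10 tested probes, the stop-codon probe of *Ucp2* rose most. Its intensity in βUCP2Tg islets was 107045, 95955, 92260 and 71900 on replicates 1 to 4, and in WT islets it was 1080, 840, 952 and 1208. Every βUCP2Tg array lay far above every WT array, and no spot was saturated. The log2 signal was 7.38 ± 0.31 (SD, n = 4) in βUCP2Tg and 1.15 ± 0.23 (SD, n = 4) in WT islets, a rise of 6.24 on the log2 scale (SE 0.18, 95% confidence interval 5.83 to 6.65), or 75.4-fold. The adjusted p of limma was 9.32e-06, the lowest of all probes tested.

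The start-codon probe of the same gene did not follow. Its intensity in βUCP2Tg islets was 911, 988, 1062 and 972, and in WT islets it was 614, 516, 592 and 727. The groups did not overlap on the log2 scale, where the lowest βUCP2Tg array was at 0.78 and the highest WT array at 0.73, so WT replicate 4 lay just under βUCP2Tg replicate 4. Means were 0.85 ± 0.06 (SD, n = 4) and 0.41 ± 0.22 (SD, n = 4), a log2 fold change of 0.44 (SE 0.12, 95% confidence interval 0.16 to 0.71) or 1.36-fold, with an adjusted p of 0.0987 by limma, and the probe was not called.

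The gap between both *Ucp2* probes was compared within arrays, which removes the scaling of the array. The log2 intensity of the stop-codon probe minus that of the start-codon probe was 6.88, 6.60, 6.44 and 6.21 in βUCP2Tg islets and 0.81, 0.70, 0.69 and 0.73 in WT islets. The change between genotypes was 5.80 on the log2 scale, so the rise at the stop codon was 55.6-fold larger than that at the start codon (p = 0.0286 in a two-sided exact permutation test, as low as 4 against 4 arrays can reach). The difference varied less among WT arrays (SD 0.06, n = 4) than among βUCP2Tg arrays (SD 0.28, n = 4). The study describes the transgene as full-length *Ucp2*. Whether its cDNA also holds the 51 untranslated bases of the start-codon probe is not given in the sources used here. The part of the transgene sequence in the gap was not tested.

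**Figure D2:**
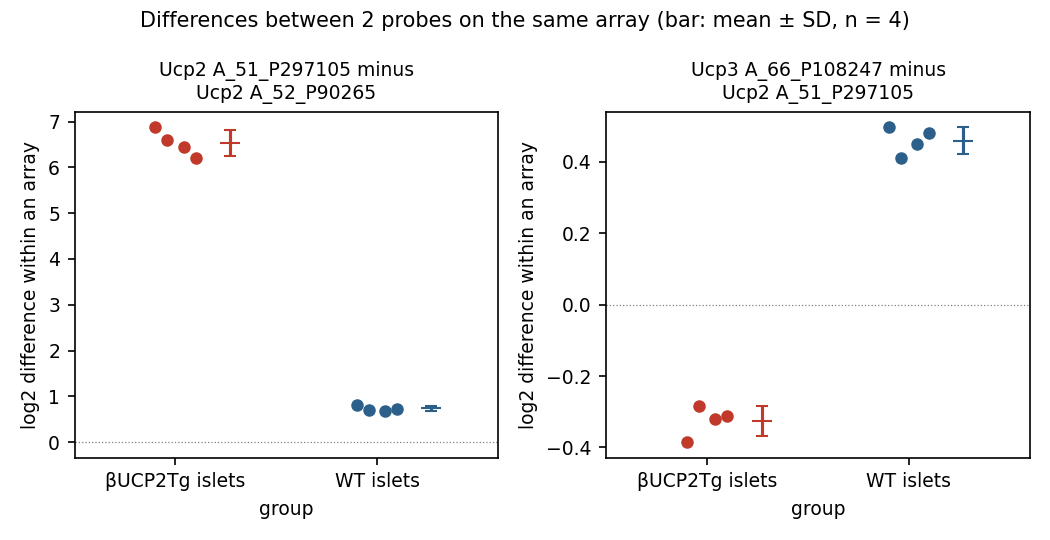
Difference in log2 intensity between a pair of probes on the same array (y axis) in βUCP2Tg and WT islets (x axis), with the mean ± SD (n = 4) beside the points. The stop-codon minus start-codon difference of *Ucp2* (left) rose from 0.73 to 6.53, and the *Ucp3* minus *Ucp2* stop-codon difference (right) went from 0.46 to −0.33.

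*Ucp2* is known from macrophages, and the summed signal of 6 macrophage markers (all 6 above background on all 8 arrays) was lower in βUCP2Tg islets, at 8.86 to 10.2 against 12.8 to 14.1 in WT islets on the linear scale relative to the 75th percentile. Of the 6, *Cd14* was called lower (log2 fold change −2.10, SE 0.33, adjusted p 0.0480 by limma) and the other 5 were not called, with *C1qa* at 0.66. The summed signal of 5 endothelial markers was higher, at 25.4 to 32.2 against 13.1 to 23.9, and none of the 5 was called, with *Esm1*, the brightest, at 0.88 and *Pecam1* and *Cdh5* at −0.03 and −0.12. The part of these cells in the start-codon signal of *Ucp2* was not tested. The 10 β-cell markers, *Ins1* and *Ins2* among them, were above background on all 8 arrays, and their sums overlapped (1191 to 1585 against 1516 to 1575).

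The probe of *Ucp3*, the muscle member of the family, rose with the transgene. Its intensity in βUCP2Tg islets was 81975, 78790, 73920 and 57871, and in WT islets it was 1523, 1117, 1300 and 1684. The probe was thus well above background in WT islets as well, and the groups did not overlap. The log2 signal was 7.06 ± 0.29 (SD, n = 4) against 1.61 ± 0.26 (SD, n = 4), a rise of 5.45 (SE 0.18, 95% confidence interval 5.04 to 5.87), or 43.8-fold, with an adjusted p of 1.52e-05 by limma, the second lowest of all probes tested. The study's qPCR found *Ucp2*, and not *Ucp1* or *Ucp3*, to be the main member in mouse islets. How much of the *Ucp3* probe signal comes from *Ucp2* RNA was not tested in either genotype.

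The rise of the *Ucp3* probe was smaller than that of the stop-codon probe of *Ucp2*. The log2 intensity of the *Ucp3* probe minus that of the stop-codon probe was −0.38, −0.28, −0.32 and −0.31 in βUCP2Tg islets and 0.50, 0.41, 0.45 and 0.48 in WT islets. Within each genotype this difference hardly moved (SD 0.04 in each, n = 4), and between genotypes it changed by −0.78 (p = 0.0286 in a two-sided exact permutation test, again the lowest that the design allows), a 1.72-fold smaller rise.

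**Figure D3:**
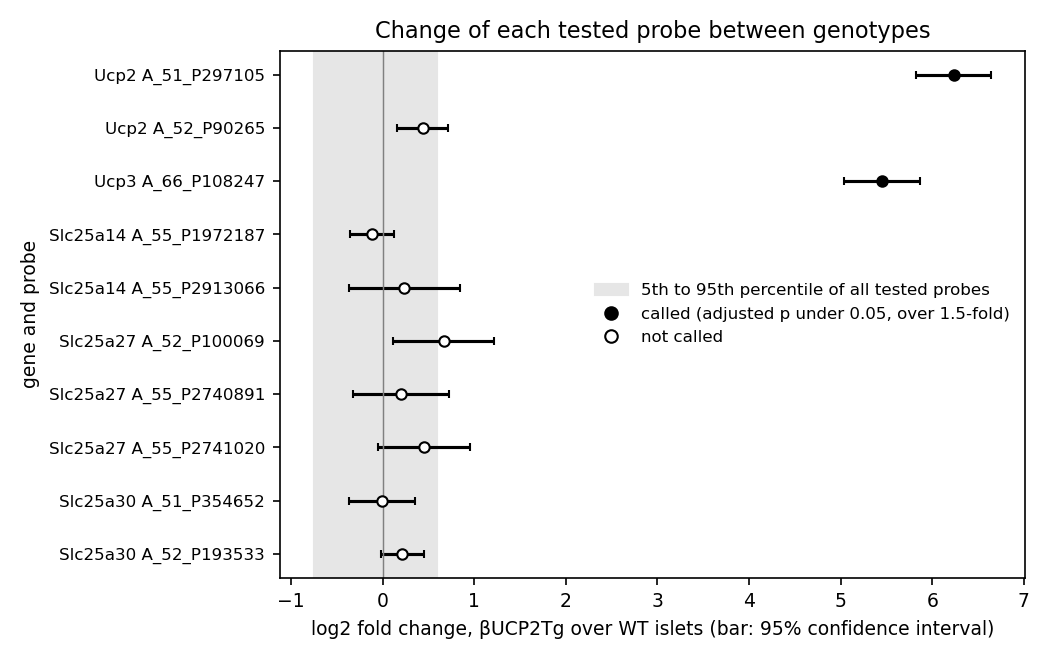
Log2 fold change of each tested probe between βUCP2Tg and WT islets (x axis) with its 95% confidence interval, by gene and probe (y axis). Filled points were called, open points were not, and the grey band holds the middle of all tested probes, from −0.75 to 0.59. The stop-codon probe of *Ucp2* at 6.24 and the *Ucp3* probe at 5.45 stand apart from the other 8.

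Markers of skeletal muscle, where UCP3 is best known, overlapped between the genotypes. Of 5 such markers, *Ckm* was above background on no array, and the summed signal of the 5 was 0.502 to 0.703 in βUCP2Tg and 0.512 to 0.702 in WT islets. None of the 4 that could be tested was called, and their median log2 fold change was 0.11.

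The *Ucp3* probe also followed the stop-codon probe of *Ucp2* from array to array within each genotype. For βUCP2Tg replicates 1 to 4, the log2 signal of *Ucp2* deviated from the group mean by 0.33, 0.12, −0.05 and −0.39, and that of *Ucp3* by 0.27, 0.16, −0.05 and −0.38. For WT replicates 1 to 4 the deviations were 0.03, −0.23, −0.12 and 0.31 for *Ucp2* and 0.07, −0.28, −0.13 and 0.33 for *Ucp3*. Both probes were thus highest on the same arrays, βUCP2Tg replicate 1 and WT replicate 4.

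Over the 8 arrays the Pearson correlation of these deviations was 0.989, the second highest among 30178 probes of other genes, all of which share the same 8 arrays and their scaling. The highest was that of *Glycam1* (0.994), followed after *Ucp3* by *Ryr1* (0.987), *Soat1* (0.986) and *Atp5a1* (0.985). The log2 fold changes of these 4 were −0.17, 0.04, −0.01 and 0.04, and none was called. These are the highest of 30178 values from 8 arrays and are given as a description, with no p.

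The start-codon probe of *Ucp2* deviated together with the stop-codon probe less closely (r = 0.672 over 8 arrays). Its deviations were −0.02, 0.05, 0.04 and −0.07 for βUCP2Tg replicates 1 to 4, where those of the stop-codon probe spanned 0.33 to −0.39, and −0.04, −0.20, −0.07 and 0.31 for WT replicates 1 to 4, close to those of the stop-codon probe. The 5 probes of other genes closest to it were *4921529L05Rik* (0.991), *Fxyd3* (0.987), *Tgoln1* (0.978), *Slc25a39* (0.977) and *Idh3g* (0.976), and none of these was called. Their log2 fold changes lay between −0.15 for *Tgoln1* and 0.17 for *Slc25a39*.

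**Figure D4:**
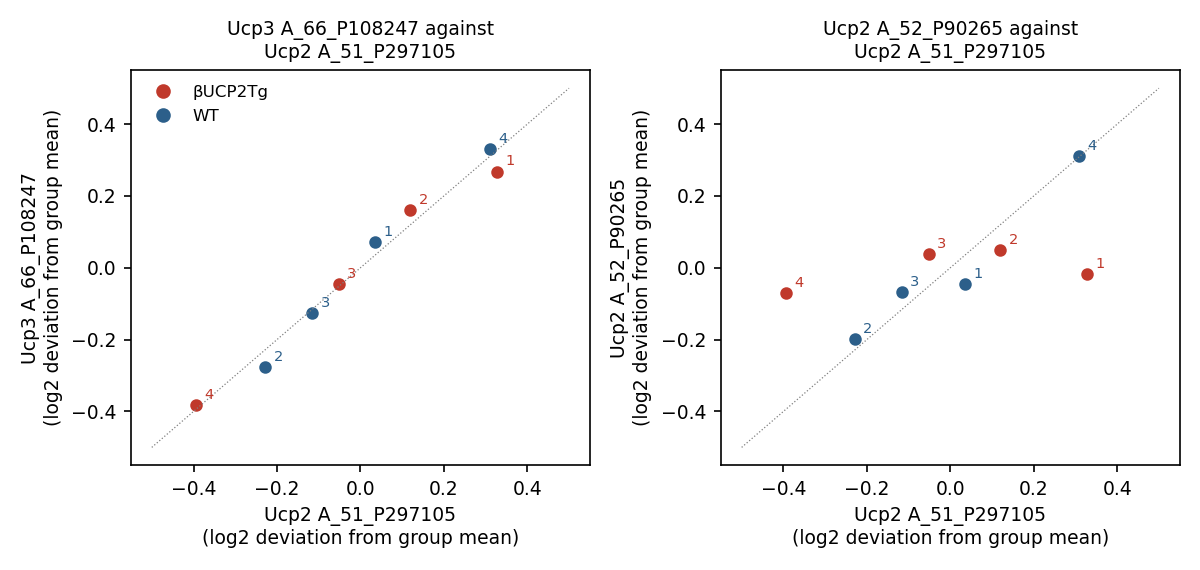
Deviation of the log2 signal from its group mean on each array, for the *Ucp3* probe (left) and the start-codon probe of *Ucp2* (right) against the stop-codon probe of *Ucp2* (x axes). Numbers are replicates, and the dotted line marks equal deviation. The *Ucp3* points lie along the line (r = 0.989), and the start-codon points do so for WT arrays but stay near 0 for βUCP2Tg arrays.

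*Ucp1*, the brown fat member, was at the edge of detection. The intensity of its probe was 8.79, 9.94, 8.15 and 8.80 in βUCP2Tg islets, none of them well above background, and 11.95, 8.57, 11.99 and 8.09 in WT islets, where replicates 1 and 3 were well above background. The scanner software put the error of a single such signal at 17.7% to 34.1%. The log2 means over all arrays were −5.93 ± 0.17 and −5.51 ± 0.25 (SD, n = 4), and the groups overlapped, so no fold is given. The probe was not tested, and a two-sided exact permutation test of its 4 against 4 values gave p = 0.0571.

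Among 6 brown fat markers, *Plin1* was above background on no array, *Adipoq* on 1, a WT array, and *Dio2* on 3, all of them WT arrays. The sum of the 6 was 1.77 to 2.35 in βUCP2Tg and 2.21 to 3.31 in WT islets, and none of the 3 that could be tested was called. These 3 went both ways, with log2 fold changes of −0.66 for *Fabp4*, −0.33 for *Cidea* and 0.99 for *Prdm16*.

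*Slc25a14*, the relative known as UCP5, had a bright and a dim probe. Probe A_55_P1972187, whose annotation names transcript variant 3, read 4748 to 5214 in βUCP2Tg and 4022 to 5232 in WT islets, with overlapping groups. Its log2 fold change was −0.11 (SE 0.10, 95% confidence interval −0.35 to 0.12, adjusted p 0.511 by limma), so the interval leaves no room for a change of 1.5-fold. Probe A_55_P2913066, whose annotation names variant 2, read 16.8 to 20.8 in βUCP2Tg and 8.00 to 22.4 in WT islets and was not above background on WT replicate 4. Its log2 fold change was 0.24 (SE 0.26, adjusted p 0.601 by limma).

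All 3 probes of *Slc25a27*, the relative known as UCP4, had higher means in βUCP2Tg islets, and none was called, though with normexp background correction A_52_P100069 and A_55_P2740891 were at −0.06 each. The coding-sequence probe A_52_P100069 read 17.9, 23.0, 24.2 and 22.6 in βUCP2Tg and 19.3, 9.69, 12.4 and 7.58 in WT islets. It was above background on 4 βUCP2Tg and 2 WT arrays, and WT replicate 1 overlapped with the βUCP2Tg arrays. Its log2 fold change was 0.67 (SE 0.24, 95% confidence interval 0.11 to 1.22, adjusted p 0.145 by limma). Without WT replicate 1 it was 0.89, with an adjusted p of 0.0194, but then only 1 of the 3 WT arrays left was above background, so this value rests on WT signals that were mostly not above background. Over all 34786 probes tested without that array, 1787 were called higher and 1972 lower, against 73 and 72 with every array. Without WT replicate 4 the log2 fold change of A_52_P100069 was 0.48 (adjusted p 0.210 by limma).

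The brightest of the *Slc25a27* probes, A_55_P2741020, read 435, 390, 407 and 385 in βUCP2Tg and 403, 242, 211 and 182 in WT islets. WT replicate 1 again stood with the βUCP2Tg arrays and apart from the other WT arrays. The log2 fold change was 0.45 (SE 0.22, 95% confidence interval −0.05 to 0.95, adjusted p 0.232 by limma), and without WT replicate 1 it was 0.67 with an adjusted p of 0.0225. Without WT replicate 4 it was 0.32 (adjusted p 0.379 by limma). Probe A_55_P2740891 read 34.2 to 40.6 in βUCP2Tg and 16.5 to 40.4 in WT islets (log2 fold change 0.20, SE 0.23, adjusted p 0.610 by limma), and here too WT replicate 1 was the highest WT array.

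Among 5 neuron and glia markers, from a tissue where SLC25A27 is best known, the summed signal was 5.64 to 6.45 in βUCP2Tg and 5.81 to 6.59 in WT islets. One of the 5, *Rbfox3*, had a probe that was called higher (A_52_P674067, log2 fold change 1.00, SE 0.14, adjusted p 0.0456 by limma), while its brighter probe was at 1.05 with an adjusted p of 0.0817. The part of such cells in the *Slc25a27* signal was not tested.

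*Slc25a30*, the kidney relative, had 4 probes, and A_52_P656860 and A_66_P103314 were above background on no array. Probe A_52_P193533 read 65.0, 75.5, 77.9 and 81.3 in βUCP2Tg and 56.0, 54.4, 47.7 and 58.2 in WT islets. On the log2 scale the groups overlapped by 1 array, WT replicate 4, and the fold change was 0.22 (SE 0.10, 95% confidence interval −0.02 to 0.45, adjusted p 0.231 by limma). Probe A_51_P354652 read 28.9 to 42.9 and 25.1 to 35.8, with a log2 fold change of −0.01 (SE 0.16, adjusted p 0.988 by limma).

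Genes around the uncoupling proteins were taken as 6 lists of 77 genes in all, each gene by its brightest tested probe, and 71 could be tested. By limma 0 of these were called, with 11 higher and 7 lower at an unadjusted p under 0.05. The methods' t-test also called 0, with 10 higher and 5 lower before adjustment. Over all 17870 genes tested in the same way, 49 were called higher and 37 lower by limma, 24.5% had an unadjusted p under 0.05, and the median log2 fold change was 0.03.

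Of the 8 nearest carriers, which move dicarboxylates, citrate, carnitine and related substrates, 7 were tested, with a median log2 fold change of 0.03. The brightest were *Slc25a11*, the oxoglutarate carrier, at 0.18 (adjusted p 0.526), *Slc25a1*, the citrate carrier, at 0.02 (adjusted p 0.951) and *Slc25a29*, a carrier of basic amino acids, at −0.25 (adjusted p 0.359), all by limma. The highest value of the list, named after it was seen, was that of *Slc25a10*, the dicarboxylate carrier, at 0.38 (adjusted p 0.152).

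Of 11 other genes of proton leak and membrane potential, 10 were tested, and their median was 0.00, or 0.10 with quantile normalization. They include the adenine nucleotide translocases, which also leak protons, and porins of the outer membrane. *Atpif1*, the inhibitor of ATP synthase reversal, was at 0.11 (adjusted p 0.484), *Slc25a4* at −0.04 (adjusted p 0.814) and *Vdac1* at 0.00 (adjusted p 0.991), all by limma.

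The 14 genes of C4 metabolite and glutamine handling, all tested, had a median of 0.05. *Mdh2*, the mitochondrial malate dehydrogenase, was at −0.17 (adjusted p 0.321), its cytosolic partner *Mdh1* at −0.35 (adjusted p 0.0885) and *Got1*, the cytosolic aspartate aminotransferase, at 0.03 (adjusted p 0.915), all by limma. A second, dimmer *Mdh1* probe was called lower (A_55_P2935221, log2 fold change −0.86, SE 0.13, adjusted p 0.0456 by limma).

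Of 16 regulators of uncoupling protein genes, 15 were tested, with a median of 0.29 and a range of −1.29 to 1.08. The median was 0.14 with normexp background correction, 0.18 without WT replicate 2 and 0.19 without WT replicate 3. At an unadjusted p under 0.05, 4 were higher and 1 lower. The brightest were *Srebf1*, a lipid synthesis factor, at 0.11 (adjusted p 0.630), *Rxra*, a partner of many nuclear receptors, at 0.35 (adjusted p 0.132) and *Esrra*, an oestrogen-related receptor, at 0.00 (adjusted p 0.995). The lowest and highest values, named after they were seen, were those of *Ppargc1a*, a coactivator of mitochondrial genes, at −1.29 (SE 0.24, adjusted p 0.0635) and *Ppara*, a receptor for fatty acids, at 1.08 (SE 0.26, adjusted p 0.0859), all by limma.

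The 12 genes of superoxide and glutathione handling, all tested, had a median of −0.05, which was 0.04 with quantile normalization and 0.0063 with median scaling. *Glrx2*, a mitochondrial glutaredoxin, was at −0.20 (adjusted p 0.285) and *Sod1*, the cytosolic superoxide dismutase, at −0.10 (adjusted p 0.543), both by limma.

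*Ucp2* and *Ucp3* are neighbours in the mouse genome, and 16 further genes within 1 Mb of them were listed, of which 13 were tested. None was called, and their median was 0.06. *Rab6a* was at −0.46 (adjusted p 0.0885), *Relt* at −0.14 (adjusted p 0.586) and *Mrpl48* at −0.05 (adjusted p 0.795), all by limma. *Dnajb13*, which lies next to *Ucp2*, was above background on no array.

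**Figure D5:**
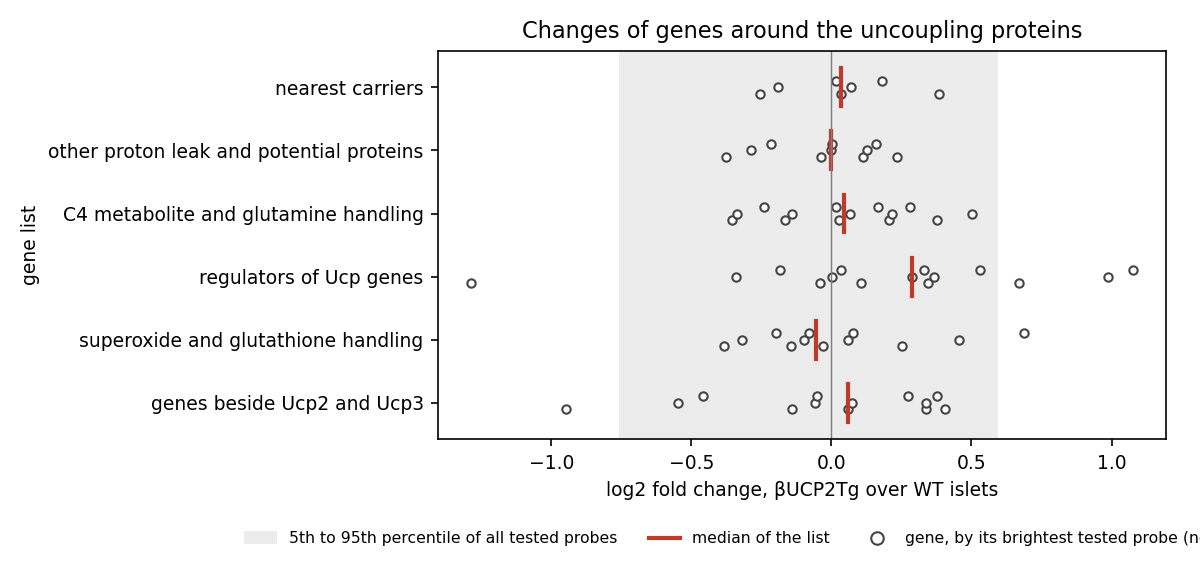
Log2 fold change between βUCP2Tg and WT islets (x axis) of each tested gene in the 6 lists (y axis), by its brightest tested probe, with the list median in red and the 5th to 95th percentile of all tested probes in grey. No gene was called; the regulators spread most widely, from −1.29 to 1.08.

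As to the arrays, the 75th percentile of log2 intensity was 8.996 to 9.16 on βUCP2Tg and 8.78 to 8.89 on WT arrays. Between 33191 and 36320 probes were well above background on an array. WT replicates 1 and 3 were each out of range in 2 of 10 quality metrics of the scanner software. All WT arrays lay in one row of the slide and all βUCP2Tg arrays in the other, so genotype and row cannot be told apart. The acinar cell markers spread widely within both genotypes (summed signal 12 to 227 and 18.7 to 394), with none of 8 called. All 8 had lower means in βUCP2Tg islets, with a median log2 fold change of −1.76 and a range of −2.14 to −0.76.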

How the data were processed

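Islet RNA was labelled with Cy3 and measured on one-colour Agilent mouse arrays, 1 per sample. The authors deposited the scanner output of each array, in which the intensity of each spot is background-subtracted by Feature Extraction, and a GeneSpring output of normalized log2 values with probe annotation and sequences. These deposited log2 values differed from the log2 intensity of the scanner output by a constant for each array. Columns with the authors' fold changes and p-values were not used. The labels name Feature Extraction 9.1, the file headers a later version.

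Control spots and outlier spots were left out, log2 intensity was set relative to the 75th percentile of each array, and probes well above background on at least 4 of 8 arrays were tested with limma 3.58.1 (lmFit, eBayes) in R 4.3.3. Sequences were read in Python 3.11.15 and figures made in matplotlib 3.10.9. The fit was tested on simulated data. The number of arrays limits the precision. Genes named were the 6 members with every probe, called list genes, the 3 brightest genes of each list and the 5 probes closest to each *Ucp2* probe, and others are named where said; 1 gene that this rule names is not reported here. Members and lists were chosen with earlier results of these data known. Alternatives covered the filter, scaling, background correction, deposited values, outlier spots, test, replicate block and each array left out. RefSeq (GRCm38.p6) gave only names and neighbours.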

Additional observations from a re-analysis of the deposited data

How the results depend on the processing

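Under all 20 alternatives, 12 of processing and 8 that leave out 1 array, the stop-codon probe of *Ucp2* (log2 fold change 6.13 to 6.37) and the *Ucp3* probe (5.36 to 5.58) were called, and the start-codon probe of *Ucp2* (0.37 to 0.54, adjusted p 0.0393 to 0.264) was not, its fold change staying under 1.5 where its adjusted p was under 0.05. With normexp background correction the log2 fold changes of *Slc25a14* A_55_P2913066, *Slc25a27* A_52_P100069 and *Slc25a27* A_55_P2740891 were −0.13, −0.064 and −0.062, and that of *Slc25a30* A_52_P193533 was 0.018 (adjusted p 0.878), none called. For *Slc25a30* A_51_P354652, at −0.01 in the report, they were 0.070 with quantile normalization, 0.0037 with scaling to the 75th percentile of fully measured probes, 0.056 with median scaling, 0.012 with the authors' deposited values and 3.89e-05 with outlier spots kept. Leaving out 1 array in turn gave −0.0052 to 0.45 for *Slc25a14* A_55_P2913066, 0.48 to 0.89 for *Slc25a27* A_52_P100069, −0.0083 to 0.38 for A_55_P2740891, 0.32 to 0.67 for A_55_P2741020 and −0.11 to 0.10 for *Slc25a30* A_51_P354652. A_52_P100069 (0.89) and A_55_P2741020 (0.67) were called only without WT replicate 1.

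Over all probes, 73 were called higher and 72 lower in the report. With no filter on dim probes 18 were higher and 3 lower, with probes measured on at least 1 array 28 and 10, with normexp 231 and 585, with the methods' t-test 17 and 9, and with an intensity trend 150 and 229. With probes measured on all 8 arrays 138 were lower. Leaving out 1 array gave 8 to 1787 higher and 0 to 1972 lower: 1787 and 1972 without WT replicate 1, and 349 and 1118 without βUCP2Tg replicate 4. List genes called numbered 0 in the report, 1 with normexp (*Ppargc1a*), 2 with an intensity trend (*Ppargc1a* and *Thrb*) and 0 to 8 with 1 array left out, 8 of them without WT replicate 1 and 3 without βUCP2Tg replicate 4. The causes were not tested.

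Replicate numbers were not taken as pairs, since arrays with the same number deviated together only for number 1 (correlations of 0.437, −0.047, −0.009 and −0.241 for numbers 1 to 4). With the replicate block, 13 probes were called higher and 1 lower, and the within-array changes kept their size (5.80 for both *Ucp2* probes, −0.78 for *Ucp3* against *Ucp2*), with an exact p of 0.125, the lowest that 4 pairs allow. The numbers of arrays limit what can be called for dim probes, of which 3 of the 13 were under the filter.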
